A study of Mus musculus with 12 samples.

Results

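The subcutaneous arm of a short diet experiment was examined here: adipocyte precursor cells of mouse inguinal fat (SWAT) after 3 days of a high-fat diet, compared with the same cells from mice on a standard diet. Its members are 6 of the 12 libraries of the series, chosen by the depot and diet in their labels, 3 labelled SWAT on standard diet (SD) and 3 labelled SWAT on high-fat diet (HFD). All mice were male C57Bl6/J aged 6 to 8 weeks with no genetic change named. SD mice ate Harlan 2018S chow and are given as day 0, and HFD mice ate Research Diets D12492, described as 60% lard, and are given as day 3, so day and diet cannot be told apart. Each library was pooled from 3 mice, and the labels do not say whether pools shared a cage or a sort. The p-values therefore measure the spread between pooled libraries, which the main fit estimates over all 12 libraries of the series. The cells were sorted as negative for CD45 and CD31 and positive for Sca1, CD34 and CD29, and both CD24-positive and CD24-negative cells were kept. The remaining 6 libraries hold the same cells from perigonadal fat (VWAT) under the same diets.

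Adipocyte precursors are fibroblast-like stromal cells. They divide, lay down extracellular matrix and can become fat cells. Division begins with DNA copying, driven by E2F factors, and ends with mitosis. Mitosis genes are switched on late in the cycle by the MuvB complex with MYBL2 and FOXM1, acting at promoter elements called CHR. Promoters of mitosis genes often hold CCAAT boxes too. Precursor identity and commitment are shaped by signals that include retinoic acid, which is known to restrain adipogenesis, and by the adipogenic factors C/EBP delta, C/EBP alpha and PPAR gamma. LXR alpha, the oxysterol receptor encoded by Nr1h3, is named in the series title beside oleic acid in the diet.

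In order of replicate number, the SD libraries held 53.7 M, 47.7 M and 22.2 M gene counts (M, 1e6 counts) and the HFD libraries 17.6 M, 39.2 M and 52.6 M, so SD replicate 3 and HFD replicate 1 were the shallow ones. Transcripts of the sort markers were present in each library. Itgb1 (CD29) stood at 486 to 489 CPM (counts per 1e6 gene counts, scaled by TMM) on SD and 590 to 607 on HFD, Cd34 at 1204 to 1316 and 1477 to 1630, and Ly6a (Sca1) at 900 to 1143 and 1044 to 1190, and none of these passed the test. Ptprc, which encodes CD45, stood at 0.536, 0.498 and 0.183 CPM on SD and at 0.201, 6.93 and 0.499 CPM on HFD. The high value belonged to HFD replicate 2 alone. The 22 tested pan-leukocyte and macrophage markers summed to 22.1 to 25.5 CPM on SD and to 21.4, 140.9 and 36.5 CPM in HFD replicates 1 to 3. HFD replicate 2 also held 12.2 CPM of 6 lymphocyte markers, against 1.56 to 2.84 CPM on SD.

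After 3 days of HFD the precursors held more transcripts of mitosis genes, of the collagen genes Col3a1 and Col5a2 and of several matrix-modifying enzymes, and fewer of a retinoic acid hydroxylase and of a few secreted factors. In edgeR's quasi-likelihood test 159 of 14266 genes (1.11%) passed an adjusted p of 0.05. Of these, 138 (0.967%) rose and 21 (0.147%) fell, and 93 of the rises and 9 of the falls were at least 2-fold. The SD and HFD libraries did not overlap for any of the 159, compared with 11.6% of all genes not overlapping upward and 10.2% downward. In these bulk samples more cells of a kind and more RNA per cell cannot be told apart.

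The number of calls rests on single libraries. In the fit over 12 libraries no gene passed when any 1 SD library or HFD replicate 2 was left out, although 1313 to 1882 genes then had an unadjusted p under 0.05. With all libraries 2120 genes (14.9%) did, 8.78% upward and 6.08% downward, and DESeq2's Wald test on all libraries called 526. In a fit of the 6 SWAT libraries alone 352 of 13687 genes (2.57%) passed, 272 upward (1.99%) and 80 downward (0.584%), with 150 of the 159 among them. It called 145 to 496 genes with 1 library left out, 147 without HFD replicate 2. Counts and adjusted p below come from the fit over 12 libraries, and those of the SWAT-only fit are named as such. Leaving out HFD replicate 1 or 3 from the 12 left 50 and 98 calls, leaving out VWAT SD replicate 1, 2 or 3 left 66, 80 and 79, and leaving out VWAT HFD replicate 3 gave 615. Every one of the 159 genes kept its direction, and an unadjusted p under 0.05, in each of these leave-one-out fits. These genes were picked on the same libraries, and their SD and HFD libraries did not overlap. Leaving out 1 library could therefore hardly turn a direction, and the kept directions are no further support. Scaling by library size alone shifted the median of all genes from near 0 to -0.18 on the log2 scale and turned the balance of calls to 101 rises and 162 falls, so changes below are relative to the typical gene.

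**Figure D1:**
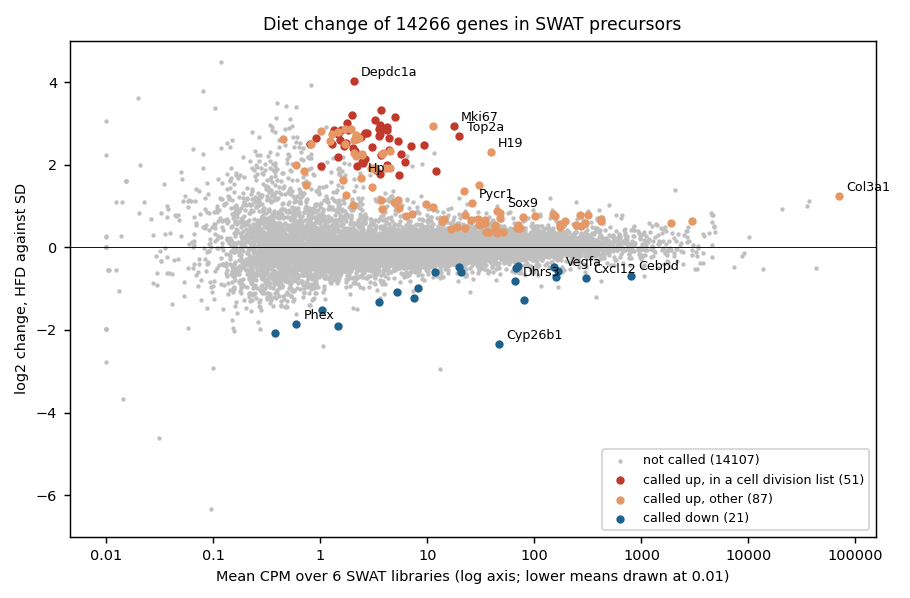
Log2 change on HFD against SD (vertical) by mean CPM over the 6 SWAT libraries (horizontal, log axis), 1 point per gene; grey points did not pass, red and orange points rose and blue points fell. The 51 red points, genes of the cell division lists, sit between 1.75 and 4.02, while Col3a1 stands at the far right with 1.23.

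Of the 138 rises, 51 belong to 5 cell division lists, which hold 138 tested genes. All 30 tested genes of the mitosis list were higher in each HFD library than in each SD library, and 26 of them passed, with a median log2 change of 2.58 beside a median near 0 over all genes. Their summed level was 35.8, 49.2 and 57.0 CPM on SD and 206.5, 282.3 and 255.6 CPM on HFD. HFD replicate 2 was the highest of these and also had the highest leukocyte sum, while HFD replicate 1 had the lowest leukocyte sum and a mitosis sum above all SD libraries, and the part of other cells in the rise was not tested. Of 37 genes for the kinetochore, condensin and cytokinesis 21 rose, and the list's median log2 change was 1.99. 

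Because these genes moved together, the promoters of 3 mitosis genes are shown with that of Cyp26b1, the gene that fell most among the better expressed ones. The 3 are the mitosis genes of lowest p by edgeR, on condition that their window held TTTGAA. No such condition was set for Cyp26b1. They are RefSeq windows on GRCm38.p6, from 250 bases before to 50 bases after the annotated start, matched by symbol and written 5′ to 3′ on the gene's strand. Capitals mark TTTGAA or TTCGAA, forms of the CHR (cell cycle genes homology region), and CCAAT, each on either strand, so that TTCAAA and ATTGG are marked too. The CHR and CCAAT patterns can share at most 1 base.
Aspm (chr1:139454523-139454822, plus strand): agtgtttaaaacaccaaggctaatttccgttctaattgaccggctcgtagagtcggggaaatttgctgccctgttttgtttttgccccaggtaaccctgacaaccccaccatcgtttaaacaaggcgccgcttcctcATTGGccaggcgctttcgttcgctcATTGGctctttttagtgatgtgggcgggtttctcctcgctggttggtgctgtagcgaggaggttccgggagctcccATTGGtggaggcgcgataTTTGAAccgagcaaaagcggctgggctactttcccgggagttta
Mki67 (chr7:135716330-135716629, minus strand): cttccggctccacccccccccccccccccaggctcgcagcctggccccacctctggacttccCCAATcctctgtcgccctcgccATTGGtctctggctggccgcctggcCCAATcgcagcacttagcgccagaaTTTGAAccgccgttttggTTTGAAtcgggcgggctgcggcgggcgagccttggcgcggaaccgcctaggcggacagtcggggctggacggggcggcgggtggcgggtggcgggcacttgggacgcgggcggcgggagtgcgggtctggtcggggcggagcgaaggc
Cenpf (chr1:189688037-189688336, minus strand): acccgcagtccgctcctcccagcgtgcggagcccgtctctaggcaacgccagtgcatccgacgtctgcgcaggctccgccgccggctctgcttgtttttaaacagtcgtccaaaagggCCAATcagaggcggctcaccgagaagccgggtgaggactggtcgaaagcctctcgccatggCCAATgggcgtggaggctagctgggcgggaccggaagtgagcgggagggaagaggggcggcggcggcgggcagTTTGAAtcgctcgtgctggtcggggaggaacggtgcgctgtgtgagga
Cyp26b1 (chr6:84593761-84594060, minus strand): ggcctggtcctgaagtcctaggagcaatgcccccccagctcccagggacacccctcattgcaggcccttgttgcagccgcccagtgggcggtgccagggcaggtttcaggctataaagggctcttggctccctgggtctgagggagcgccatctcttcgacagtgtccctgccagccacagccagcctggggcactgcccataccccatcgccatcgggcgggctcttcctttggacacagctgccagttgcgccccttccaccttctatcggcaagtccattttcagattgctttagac
The Aspm window held 1 CHR match and 3 CCAAT matches, the Mki67 window 2 and 3, the Cenpf window 1 and 2, and the Cyp26b1 window none. As the 3 mitosis windows had to hold TTTGAA, the presence of a CHR match in them was set by the choice. A CHR pattern lay in 82.1% of the 28 windows of 27 mitosis genes, in 58.2% of the 98 windows of 89 genes that rose, in 16.0% of the 25 windows of 12 genes that fell, in 13.7% of the 12551 windows of 9775 tested genes and in 19.2% of all 32851 windows in the table. CCAAT lay in 82.1, 56.1, 32, 37.3 and 37.4% of the same sets, and both patterns together in 75.0, 44.9, 16.0, 5.52 and 7.52%. Without the genes of the 5 cell division lists, 54 windows of 48 genes that rose remain, of which 37.0% held a CHR pattern, 44.4% CCAAT and 27.8% both. The 87 rises from which these windows come still include the 21 with textbook roles in cell division named below. These shares are therefore not those of genes without a part in division. A match in these letters is a description of the sequence and says nothing about binding.

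Mki67, the proliferation antigen that coats mitotic chromosomes, stood at 3.25, 5.0 and 4.17 CPM on SD and at 25.9, 36.5 and 31.4 CPM on HFD. The lowest HFD library was thus well above the highest SD library, a 7.60-fold rise (log2 2.93 ± 0.40 SE, n = 3 per diet, adjusted p = 0.0189 by edgeR). Top2a, the topoisomerase that untangles chromosomes before they separate, stood at 3.60, 6.37 and 6.33 CPM on SD and at 27.2, 37.4 and 38.4 CPM on HFD, a log2 change of 2.69 (adjusted p = 0.0189 by edgeR). Aspm, a spindle pole protein, rose 7.47-fold from 0.918, 0.953 and 1.19 CPM to 6.89, 8.17 and 7.26 CPM. Cenpf, a kinetochore protein, rose 8.89-fold, from 0.708 to 1.19 CPM on SD to 7.49 to 10.2 CPM on HFD. Their replicates varied within each diet, but for none of these genes did an SD library reach any HFD library. Hmmr, which organizes spindle microtubules, rose by 3.32 on the log2 scale, and Kif23, the motor of the cytokinetic midzone, by 3.09. Ckap2l and Cdca3 rose by 2.83 and 2.96.

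Among the regulators, the cyclins and the kinase of mitotic entry rose. Ccna2 stood at 0.937, 1.52 and 2.48 CPM on SD and 7.02, 9.84 and 9.97 CPM on HFD (log2 2.56, adjusted p = 0.0276 by edgeR). Cdk1, the mitotic kinase, and Ccnb1 and Ccnb2, its B-type cyclins, rose by 2.87, 2.76 and 2.73 on the log2 scale. They were the 4 members that passed among 23 cyclins, CDKs and CDK inhibitors. Ube2c, the ubiquitin conjugase used to destroy mitotic cyclins, rose by 2.83. Foxm1, the transcription factor of late cell cycle genes, stood at 2.20, 2.42 and 2.84 CPM on SD and 8.63, 8.36 and 7.82 CPM on HFD, a rise of 1.75 on the log2 scale (adjusted p = 0.0276 by edgeR). E2f8, an atypical repressor of the E2F family, rose by 2.50, and these were the 2 of 18 E2F, RB, FOXM1 and MYBL2 genes that passed. E2f2 and E2f3 had log2 changes of 1.29 and 0.69 with edgeR adjusted p of 0.0833 and 0.0565.

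The DNA replication list gave few calls or none, depending on the fit. None of its 32 genes passed in the edgeR fit over 12 libraries, while Clspn, Dtl, Mcm10, Rrm2 and Uhrf1 rose in the SWAT-only fit, 5 of 32 beside 30 of 30 mitosis genes. Over 12 libraries 5 had an unadjusted p under 0.05 upward and 1 downward, and DESeq2 called 5, all upward. The median log2 change was 0.18, and 9 genes were higher in each HFD library. The lowest adjusted p belonged to Clspn, a replication checkpoint adaptor, at 0.708, 0.736 and 1.1 CPM on SD and 2.94, 1.83 and 2.25 CPM on HFD (log2 1.46, adjusted p = 0.0679 by edgeR). Uhrf1, which maintains DNA methylation behind the fork, and Rrm2, the small subunit of ribonucleotide reductase, had log2 changes of 1.09 and 1.17 with edgeR adjusted p of 0.0808 and 0.132, and 0.0296 and 0.0191 in the SWAT-only fit. The difference between the replication and the mitosis list was not tested. Outside the 5 division lists, 21 more of the rises have textbook roles in cell division, an assignment made after their values were seen. They include Diap3, a formin of the cytokinetic furrow, Nek2, a centrosomal kinase, and Esco2, which establishes sister chromatid cohesion, with log2 changes of 1.91, 2.71 and 2.79.

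**Figure D2:**
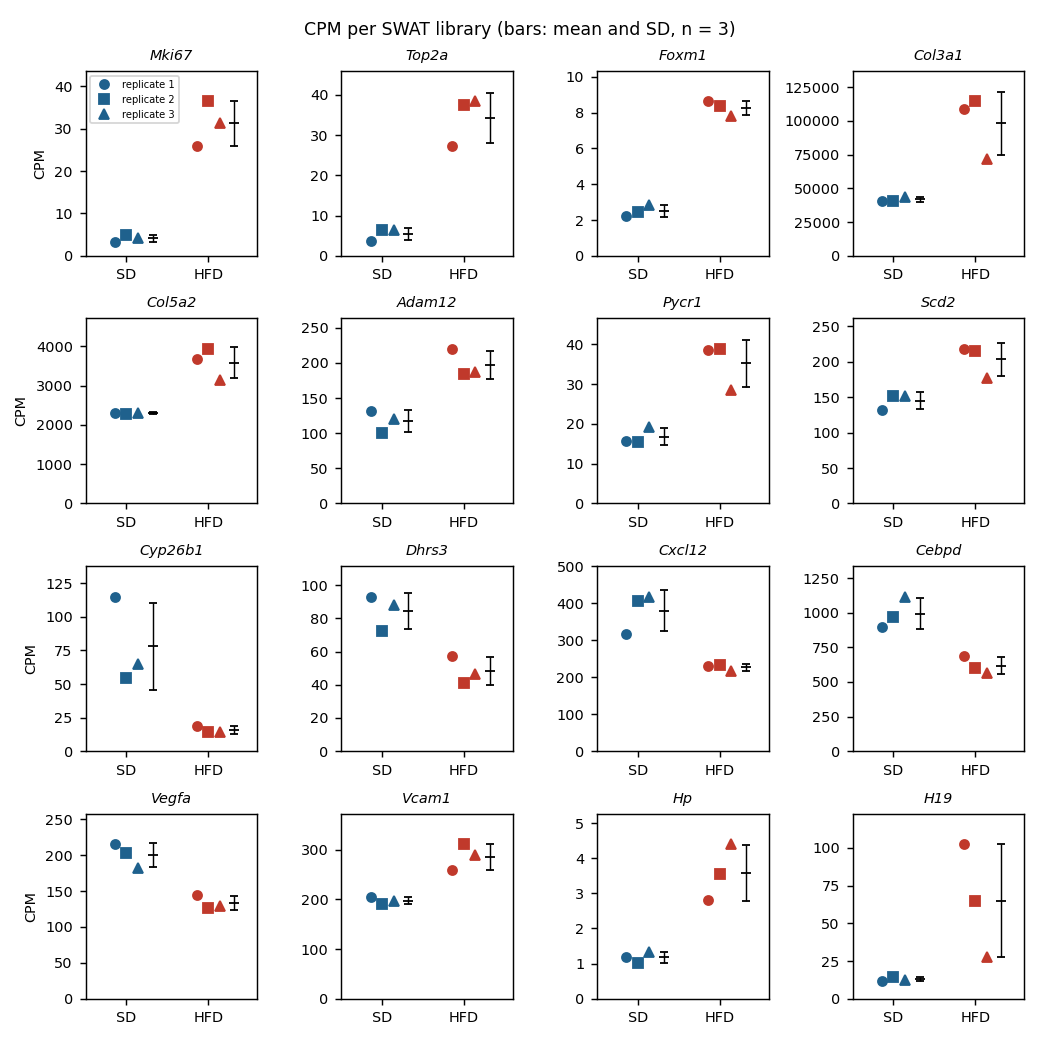
CPM of 16 genes in each SWAT library (vertical, linear axes from 0) by diet, with 1 symbol per replicate and black bars for mean and SD (n = 3). In each panel the SD and HFD symbols are apart, and for Col3a1 and H19 HFD replicate 3 lies nearer to SD than the other HFD libraries do.

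Matrix genes formed the second group. Collagen transcripts of the 28-gene list took 11.3, 11.1 and 11.9% of all gene counts on SD and 21.9, 22.9 and 15.8% on HFD. Of the 28 genes, 25 had a positive log2 change and 3 passed, with a list median of 0.42. Col3a1, the fibrillar collagen of loose connective tissue, stood at 40630, 40960 and 43870 CPM on SD and at 109000, 114300 and 71350 CPM on HFD. The SD libraries differed little and HFD replicate 3 was the lowest of its group, for a 2.35-fold rise (log2 1.23 ± 0.25 SE, adjusted p = 0.0384 by edgeR). Col5a2, which helps set fibril diameter, stood at 2305, 2280 and 2316 CPM on SD and 3680, 3932 and 3155 CPM on HFD (log2 0.64, adjusted p = 0.0469 by edgeR). Col4a5, a basement membrane chain, rose by 0.60 (adjusted p = 0.0501 by edgeR in the SWAT-only fit). The partner chains lay just outside the threshold over 12 libraries, and in the SWAT-only fit Col1a1, Col1a2, Col5a1, Col6a2 and Col6a3 passed beside Col3a1 and Col5a2. Col5a1 had a log2 change of 0.79 (adjusted p = 0.0505 by edgeR), and Col1a1 and Col1a2, the chains of type I collagen, had 1.12 and 0.99 with edgeR adjusted p of 0.0777 and 0.0556.

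Collagen-handling genes mostly had positive values. Of 23 genes for folding, hydroxylation and crosslinking 22 had positive log2 changes, with a median of 0.34. None passed in the edgeR fit over 12 libraries, where 16 had an unadjusted p under 0.05, while Lepre1, Fkbp10, P4ha2 and Loxl2 rose in the SWAT-only fit and DESeq2 called 6. Lepre1, a prolyl 3-hydroxylase, stood at 103, 103 and 122 CPM on SD and 164, 162 and 151 CPM on HFD (log2 0.54, adjusted p = 0.0542 by edgeR). Fkbp10, a collagen chaperone, and P4ha2, a prolyl 4-hydroxylase subunit, had log2 changes of 0.55 and 0.46. Of 40 other matrix genes only Vcan, the hyaluronan-binding proteoglycan versican, passed over 12 libraries in edgeR, at 366, 329 and 292 CPM on SD and 484, 486 and 567 CPM on HFD. Sparc, a collagen-binding matricellular protein, had a log2 change of 0.93 (adjusted p = 0.0654 by edgeR). Tgfbi, another secreted matrix protein, had -0.74 (adjusted p = 0.0619 by edgeR), against the sign of most of its list. In the SWAT-only fit 10 of the 40 rose, Vcan and Sparc among them, and Tgfbi fell.

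Enzymes that make or cut matrix rose in the same comparison. Has2, the hyaluronan synthase, stood at 170, 157 and 124 CPM on SD and 213, 239 and 256 CPM on HFD (log2 0.65, adjusted p = 0.0301 by edgeR). The 3 of 26 proteases and inhibitors that passed were all metalloproteinases. Adam12, a membrane-anchored protease of mesenchymal cells, stood at 131, 100 and 120 CPM on SD and 220, 185 and 187 CPM on HFD (log2 0.75, adjusted p = 0.0201 by edgeR). Adamts12 rose by 0.77 and Mmp19 by 0.76, and in Mmp19 the highest library was HFD replicate 3, at 159 CPM beside 111 and 114. Ccdc80, a secreted protein of fat stroma, rose by 0.59, Ctsh, a lysosomal protease, by 0.68, and Lman1, a cargo receptor for export from the endoplasmic reticulum, by 0.56. Ppic, a secretory-pathway cyclophilin, rose by 0.77 and Lgals3bp, a secreted galectin ligand, by 0.52.

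Enzymes of proline and one-carbon metabolism were among the rises, chosen here after their values were seen. Pycr1, which makes proline, a major residue of collagen, stood at 15.6, 15.6 and 19.2 CPM on SD and 38.5, 38.8 and 28.4 CPM on HFD, a 2.10-fold rise (log2 1.07 ± 0.19 SE, adjusted p = 0.0245 by edgeR). Aldh18a1, which supplies its precursor, stood at 56.3, 55.3 and 60.7 CPM on SD and 78.4, 81.0 and 78.0 CPM on HFD (log2 0.46, adjusted p = 0.0384 by edgeR). Aldh1l2, a mitochondrial folate enzyme, stood at 16.6, 15.4 and 15.8 CPM on SD and 47.9, 55.4 and 32.6 CPM on HFD, a log2 change of 1.5. Bcat1, the cytosolic branched-chain aminotransferase, rose by 0.89. As for Col3a1, HFD replicate 3 was the lowest HFD library for Pycr1 and Aldh1l2, but not for Bcat1. Of 25 stress response genes (unfolded protein and amino acid stress) none passed in the edgeR fit over 12 libraries, 2 had an unadjusted p under 0.05, DESeq2 called 1 and the SWAT-only fit 1, Sesn2, upward.

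**Figure D3:**
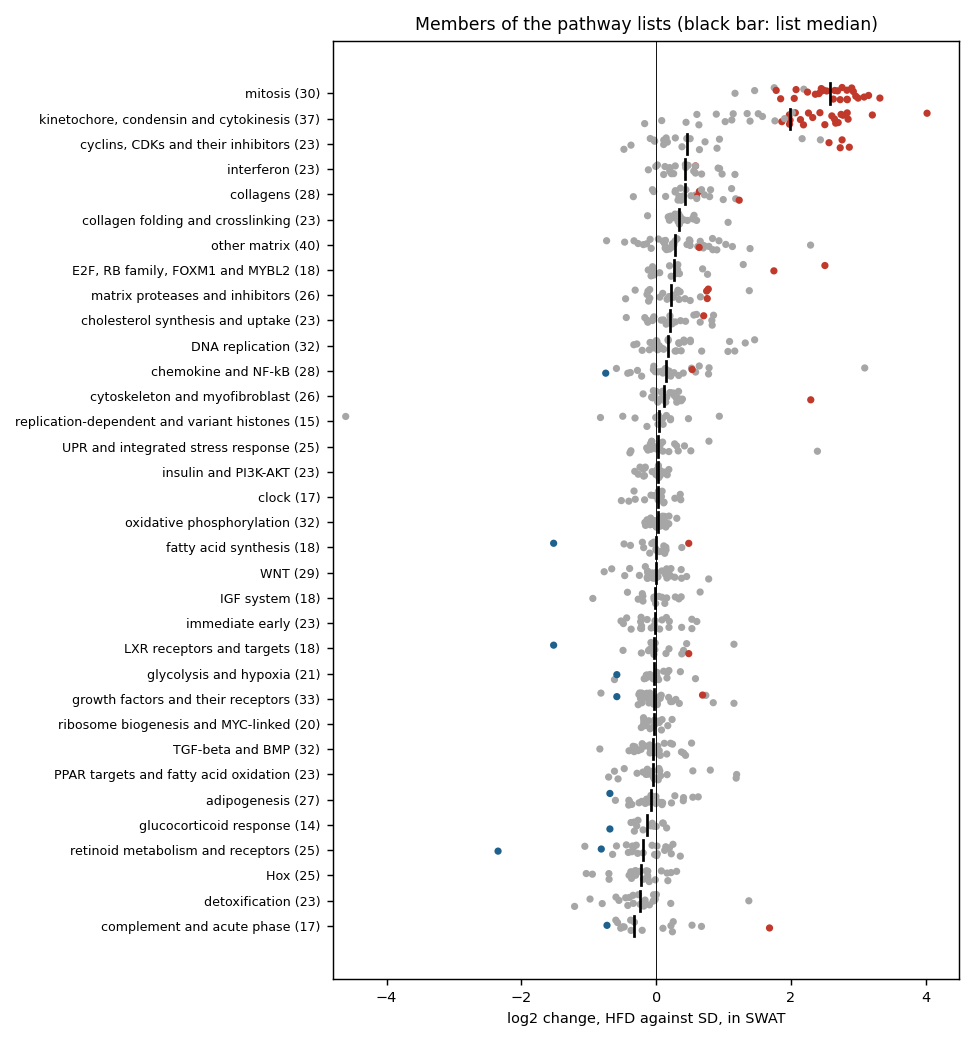
Log2 change on HFD against SD in SWAT (horizontal) for the members of 34 pathway lists, 1 point per gene, red for rises, blue for falls and grey for genes that did not pass, with a black bar at each list's median and the number tested in parentheses. Only the mitosis list and the kinetochore, condensin and cytokinesis list have medians above 1, at 2.58 and 1.99.

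Retinoid handling held the largest fall. Cyp26b1, the enzyme that breaks down retinoic acid, stood at 115, 54.4 and 65.3 CPM on SD and at 18.9, 14 and 13.9 CPM on HFD. SD replicate 1 was high within its group, and the lowest SD library was still above all HFD libraries, a 5.09-fold fall (log2 -2.35 ± 0.35 SE, adjusted p = 0.0189 by edgeR). Dhrs3, which returns retinaldehyde to retinol, stood at 93.1, 72.4 and 87.9 CPM on SD and 57.2, 40.9 and 46.4 CPM on HFD (log2 -0.81, adjusted p = 0.0189 by edgeR). Both are known targets of retinoic acid receptors. They were the 2 of 25 retinoid genes that passed, and the list's median was -0.19. Rarg, a retinoic acid receptor, had a log2 change of -0.35 (adjusted p = 0.118 by edgeR) and Rdh5, a retinol dehydrogenase, -0.59 (adjusted p = 0.197 by edgeR).

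Sterol and fatty acid genes were examined next. Sqle, Stard4 and Insig1, which are SREBP2 targets, had log2 changes of 0.85, 0.60 and 0.56 with edgeR adjusted p of 0.132, 0.157 and 0.197. Scd2, a fatty acid desaturase that is also an LXR target, stood at 132, 152 and 152 CPM on SD and 218, 215 and 177 CPM on HFD, a log2 change of 0.48 (adjusted p = 0.0453 by edgeR, and 0.0528 in the SWAT-only fit). Mlxipl, the carbohydrate-response factor ChREBP, fell by 1.52 on the log2 scale from a low level, 1.19 to 1.97 CPM on SD and 0.499 to 0.588 CPM on HFD. Scd2 and Mlxipl were the 2 of 18 LXR receptors and targets that passed, 1 in each direction, and in the SWAT-only fit Mlxipl alone passed. Over 12 libraries 5 of the 18 had an unadjusted p under 0.05 upward and 3 downward, beside 8.78% and 6.08% of all genes. DESeq2 called 3 upward and 2 downward, and the list's median log2 change was -0.03.

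Nr1h3 itself stood at 35.0, 31.1 and 31.8 CPM on SD and 28.4, 28.9 and 38.7 CPM on HFD, with overlapping groups and a 95% interval of its log2 change from -0.31 to 0.27. Nr1h2, the gene of LXR beta, had a log2 change of -0.22 (adjusted p = 0.219 by edgeR). The intervals were -0.28 to 0.66 for Abca1, the cholesterol exporter, -0.24 to 0.17 for Srebf1 and -0.33 to 0.14 for Scd1. Abcg1 stood at 1.85 to 2.82 CPM over the 6 libraries and had a wide interval, -0.89 to 0.76. Akt2, a kinase of insulin signalling, had an interval of -0.15 to 0.22. No gene of the 23 in the insulin and PI3K-AKT list passed in either edgeR fit, had an unadjusted p under 0.05 or was called by DESeq2.

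Of 27 adipogenesis genes 1 passed. Cebpd, an early adipogenic factor that glucocorticoids induce, stood at 900, 966 and 1116 CPM on SD and 686, 601 and 566 CPM on HFD, a 1.61-fold fall (log2 -0.69 ± 0.13 SE, adjusted p = 0.0306 by edgeR). Pparg and Cebpa, the later adipogenic factors, had log2 changes of -0.17 and -0.14 with intervals of -0.52 to 0.17 and -0.38 to 0.09. Cd36, a fatty acid transporter, stood at 88.6, 81.0 and 82.8 CPM on SD and 218, 204 and 156 CPM on HFD, without overlap, but had an edgeR adjusted p of 0.0914 in the fit over 12 libraries and 0.000944 in the fit of the 6 SWAT libraries. Creb3l3, a lipid-responsive transcription factor, had a log2 change of 1.19 (adjusted p = 0.0629 by edgeR), and Txnip, a glucose-responsive arrestin, -0.71 (adjusted p = 0.0978 by edgeR). None of the 23 PPAR and fatty acid oxidation genes passed in the edgeR fit over 12 libraries. In the SWAT-only fit Cd36 and Creb3l3 rose and Txnip fell. Over 12 libraries 4 had an unadjusted p under 0.05 upward and 3 downward, and DESeq2 called 2 in each direction.

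Several secreted factors fell. Cxcl12, the chemokine that retains haematopoietic and immune cells in stroma, stood at 317, 407 and 418 CPM on SD and 230, 234 and 216 CPM on HFD (log2 -0.75 ± 0.12 SE, adjusted p = 0.0189 by edgeR). Vegfa, the main angiogenic growth factor, stood at 215, 203 and 182 CPM on SD and 145, 127 and 129 CPM on HFD (log2 -0.58, adjusted p = 0.0255 by edgeR). Summed over 17 complement and acute phase genes the level was 24740 to 25970 CPM on SD and 16150, 17520 and 21640 CPM on HFD. C4b and C1ra had log2 changes of -0.49 and -0.38 with edgeR adjusted p of 0.129 and 0.130. Myoc, a secreted glycoprotein, fell by 1.27 on the log2 scale, from 78.4, 124 and 136 CPM to 67.3, 39.6 and 34.2 CPM.

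Other falls were in receptors, enzymes and regulators. Hrh2, a histamine receptor, fell by 1.31 on the log2 scale, Adhfe1, a mitochondrial alcohol dehydrogenase, by 1.23, St6galnac5, a sialyltransferase, by 1.08, and Rap1gap2, which turns off the GTPase Rap1, by 0.98. Cntfr, a receptor for ciliary neurotrophic factor, fell by 0.60, Usp11, a deubiquitinase, by 0.60, and Camk2n1, an inhibitor of CaM kinase II, by 0.48. Phex and Mlana, chosen after their values were seen, fell by 1.86 and 1.91 from levels of at most 0.976 and 2.61 CPM. Mlana is a melanocyte gene, and other melanocyte genes were not examined.

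Rises among signalling and immune genes were few. Vcam1, an adhesion molecule for leukocytes, stood at 205, 191 and 197 CPM on SD and 259, 311 and 289 CPM on HFD (log2 0.53, adjusted p = 0.0402 by edgeR). Gbp3, an interferon-induced GTPase, stood at 30.7, 27.1 and 25.4 CPM on SD and 41.7, 42.7 and 40.6 CPM on HFD (log2 0.58, adjusted p = 0.0321 by edgeR). It was the only 1 of 23 interferon genes to pass over 12 libraries, and Irf7, Oas2 and Rsad2 also rose in the SWAT-only fit. Of the 23, 21 had positive log2 changes, 15 did not overlap upward and the list's median was 0.43. Rsad2 and Oas2, antiviral effectors, had log2 changes of 0.92 and 0.94 with edgeR adjusted p of 0.0565 and 0.0654. The median of the interferon list was 0.40 without HFD replicate 2, the library with leukocyte transcripts. Csf2, which encodes GM-CSF and was chosen after its values were seen, stood at 1.11, 1.67 and 1.19 CPM on SD. On HFD it stood at 3.34, 8.29 and 7.08 CPM, lowest in HFD replicate 1, which had a leukocyte sum like that of SD. The part of leukocytes in the interferon and Csf2 values was not tested. Ccl2, a monocyte chemokine, had a log2 change of 0.78 (adjusted p = 0.148 by edgeR).

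The remaining rises described here are Hp, Ret, H19, Sox9 and Tbc1d4. H19, Sox9 and Tbc1d4 were chosen after their values were seen. Hp, the haemoglobin-binding acute phase protein, was the 1 of the 17 complement and acute phase genes to rise. It stood at 1.19, 1.02 and 1.33 CPM on SD and 2.81, 3.56 and 4.39 CPM on HFD, a 3.21-fold rise (log2 1.68 ± 0.22 SE, adjusted p = 0.0189 by edgeR). H19, an imprinted non-coding RNA, stood at 11.8, 14.4 and 12.7 CPM on SD and 102, 65.0 and 27.6 CPM on HFD, so HFD replicate 1 was the highest and HFD replicate 3 the lowest of its group. Sox9, a transcription factor of mesenchymal progenitors, stood at 36.9, 30.9 and 34.9 CPM on SD and 55.1, 65.3 and 62.4 CPM on HFD, a 1.78-fold rise. Ret, a receptor tyrosine kinase, rose 1.61-fold, and Tbc1d4, a regulator of GLUT4 vesicles, 1.72-fold.

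Lists for positional identity, WNT signalling and detoxification had no member past the threshold in the edgeR fit over 12 libraries. In the SWAT-only fit Hoxa2 of the Hox list and Osr1 of the visceral patterning list fell. Rspo1 of the WNT list, and Gstm1 and Inmt of the detoxification list, also fell in that fit. Of 7 visceral patterning genes 6 had negative log2 changes and 2 had an unadjusted p under 0.05, both downward. Of 8 subcutaneous patterning genes 4 had negative log2 changes. Of 25 Hox genes 20 had negative log2 changes, with a median of -0.23, 6 had an unadjusted p under 0.05 and DESeq2 called 2, all downward. Hoxa2 stood at 2.51, 2.45 and 2.57 CPM on SD and 1.34, 1.30 and 1.27 CPM on HFD, without overlap (log2 -0.95, adjusted p = 0.0628 by edgeR). Of 23 detoxification genes 20 had negative values, with a median of -0.24, 5 had an unadjusted p under 0.05 downward and 1 upward, and DESeq2 called 2, both downward. Gstm1, a glutathione transferase, stood at 362, 366 and 348 CPM on SD and 241, 230 and 240 CPM on HFD (log2 -0.60, adjusted p = 0.0765 by edgeR). Of 29 WNT genes 5 had an unadjusted p under 0.05 downward and 1 upward, and DESeq2 called 1, downward. Rspo1, a secreted enhancer of WNT signalling, had a log2 change of -0.77 (adjusted p = 0.0542 by edgeR). Gas6, a ligand of TAM receptors, stood at 442, 463 and 709 CPM on SD and 214, 334 and 365 CPM on HFD (log2 -0.82, adjusted p = 0.105 by edgeR).

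Markers of precursor subsets gave no calls over 12 libraries. Dpp4, the marker of early interstitial progenitors, stood at 442 to 540 CPM on SD and 509 to 540 CPM on HFD, with an interval of -0.14 to 0.42. None of the 16 DPP4 progenitor markers and none of the 15 committed preadipocyte markers passed in that edgeR fit, 1 and 5 had an unadjusted p under 0.05 upward and 1 and 1 downward, and DESeq2 called 1 and 3, all upward. In the SWAT-only fit Cd36 and Sdc1 of the committed markers rose. Of 13 markers of F3-positive regulatory stroma 11 had negative log2 changes, with a median of -0.36. None passed in edgeR over 12 libraries, 7 had an unadjusted p under 0.05 and DESeq2 called 4, all downward. Among them Igfbp3, an IGF-binding protein, stood at 122, 212 and 116 CPM on SD and 98.2, 78.2 and 59.9 CPM on HFD, and Inmt, a methyltransferase, at 470, 481 and 640 and at 177, 228 and 281 CPM. Each had an edgeR adjusted p of 0.0534, just outside the threshold, and in the SWAT-only fit Inmt fell (adjusted p = 0.00774 by edgeR) while Igfbp3 had 0.0854.

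Markers of other cells were measured beside these changes. Of the 22 leukocyte and macrophage markers 20 had positive log2 changes, with a median of 1.88 that fell to 0.40 without HFD replicate 2. None passed in either edgeR fit, 19 had an unadjusted p under 0.05 over 12 libraries and DESeq2 called 4. Among the leukocyte markers only Cd52 was at 0 counts in a library, HFD replicate 1. Of 12 lymphocyte markers in the table Cd3e, Cd8a, Cd79b, Ltb and Rac2 were at 0 in HFD replicate 1, and the median of the 6 tested of 1.70 became -0.14 without HFD replicate 2. The 15 endothelial markers summed to 238.0 to 341.6 CPM on SD and 278.5 to 357.5 CPM on HFD, which overlap, but all 15 had positive log2 changes, with a median of 0.90 that was 0.54 without HFD replicate 2. None passed in either edgeR fit or in DESeq2, and 2 had an unadjusted p under 0.05 over 12 libraries. The 4 tested erythroid markers summed to 2.41, 3.25 and 1.93 CPM on SD and to 3.68, 13.6 and 8.59 CPM on HFD, so their sums were low but did not overlap. All 4 had positive log2 changes, with a median of 1.63 that was 1.15 without HFD replicate 2. Of these none passed over 12 libraries in edgeR or in DESeq2, 3 had an unadjusted p under 0.05 and Hbb-b1, a beta-globin gene, rose in the SWAT-only fit. The part of these cells in the diet changes was not tested. Without HFD replicate 2 the mitosis list's median was 2.47 and the collagen list's 0.42.

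**Figure D4:**
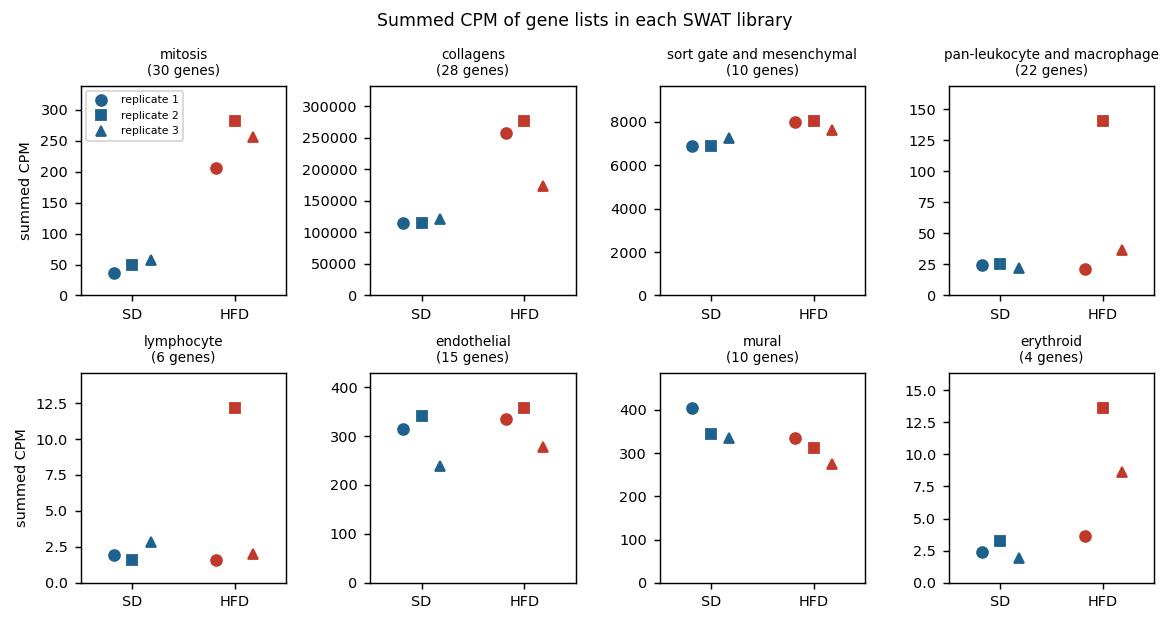
Summed CPM (vertical, linear axes from 0) of the tested genes of 8 lists in each SWAT library by diet, 1 symbol per replicate. The mitosis and collagen sums are apart between the diets in all libraries, while the leukocyte and lymphocyte sums are high in HFD replicate 2 alone, at 140.9 and 12.2 CPM.

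The perigonadal libraries were used to see where the subcutaneous change differs. In VWAT 2228 genes (15.6%) passed the same test, 1232 upward (8.64%) and 996 downward (6.98%). Of the 138 SWAT rises 125 also rose in VWAT, 90.6% of the SWAT rises and 10.1% of the VWAT rises, and 17 of the 21 SWAT falls also fell there, 81.0% of the SWAT falls and 1.71% of the VWAT falls. The 2 comparisons share no library, but both were tested in the same fit over 12 libraries, which pools its estimate of the spread. Their calls are therefore not independent. No gene passed the test of the difference between the diet changes in edgeR, where 1026 had an unadjusted p under 0.05, so no change is shown to be particular to subcutaneous precursors. The lowest adjusted p of that test in edgeR was 0.205, for Hp, with a log2 change of 1.68 in SWAT and -0.14 in VWAT. Its levels were far apart, with means on SD and HFD of 1.18 and 3.59 CPM in SWAT and 206.8 and 188.2 CPM in VWAT. Vegfa changed by -0.58 in SWAT and 0.03 in VWAT, Sox9 by 0.83 and 0.02, and Ret by 0.69 and 1.83, each with an adjusted p of 0.452 for the difference in edgeR. Col4a5 had 0.60 and -0.03, with an edgeR adjusted p of 0.506 for the difference. Cyp26b1 had -2.35 in SWAT and -2.42 in VWAT.

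**Figure D5:**
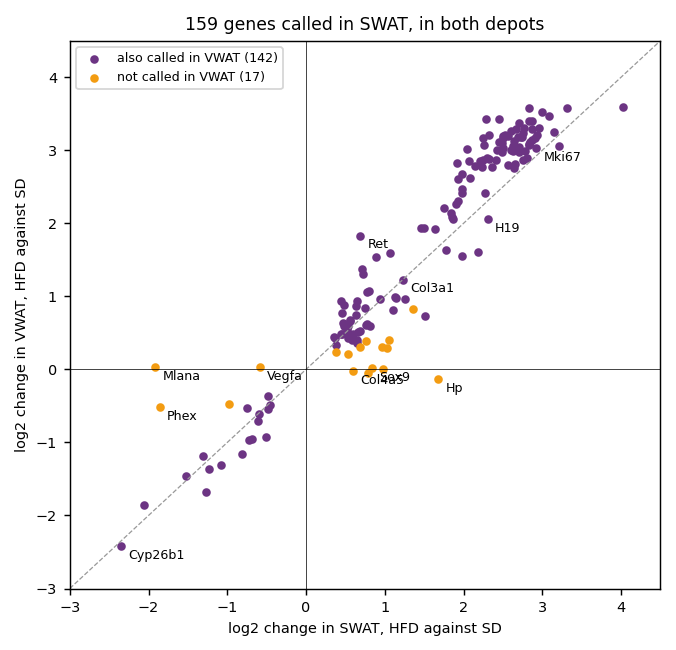
Log2 change on HFD against SD in SWAT (horizontal) and in VWAT (vertical) for the 159 genes that passed in SWAT, purple where they also passed in VWAT (142) and orange where they did not (17); the dashed line marks equal change. Cyp26b1, Col3a1 and Mki67 lie near the line, while Hp, Sox9, Vegfa and Mlana lie near 0 in VWAT.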

How the data were processed

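Poly(A) RNA of sorted precursors was read as 75 bp single ends from dUTP-marked libraries, per the labels' protocols. Reads were aligned with TopHat and counted with HTSeq on mm9, per the submitters' processing notes; their versions are not given in the sources used here. Raw counts were deposited by the authors for 14398 genes. Entries that name no gene (3.53 to 5.03, 1.81 to 1.95 and 15.0 to 19.8% of SWAT libraries) were left out. From these counts edgeR 4.0.16 (R 4.3.3; TMM, filterByExpr, robust quasi-likelihood F test) was fitted on 12 libraries and 4 groups, keeping 14266 genes. "Rose", "fell" and "passed" mean a Benjamini-Hochberg adjusted p under 0.05 over all genes tested. CPM are TMM-scaled. An interval is at 95%. TMM factors were 0.968 to 0.983 on SD and 0.825 to 0.913 on HFD.

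Genes and lists were chosen with earlier results of these data known. Named genes were the 14 largest rises and 14 largest falls with a mean CPM of at least 5, the 12 rises and 6 falls of highest CPM, up to 4 members of lowest adjusted p per list, and 18 fixed genes; some that met this rule are not reported here, and others were chosen after their values were seen, as stated, with Col1a1, Col1a2, Diap3, Nek2 and Esco2. Alternatives included DESeq2 1.42.0 and limma voom 3.58.1. The edgeR code was tested on simulated data. Genes with near-identical copies are uncertain, and so are overlapping and antisense genes, as no source used here says whether counting used the strand. Promoter windows matched 9775 of 14266 tested genes by symbol. No gene coordinates on mm9 are given.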

Additional observations from a re-analysis of the deposited data

How the results depend on the processing

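The fit over 12 libraries called 159 genes, 138 up and 21 down. DESeq2 size factors gave 160 and no low-count filter 149. Library size alone gave 263, with 101 up and 162 down. A minimum mean CPM of 5 gave 57 (48 up, 9 down), DESeq2's Wald test 526 (407 and 119) and limma voom 12 (6 and 6). The 6 SWAT libraries alone gave 352 (272 and 80), and thinning every library to the smallest 94 (80 and 14). Leaving out each library in turn gave 0 to 615 calls (0 to 451 up, 0 to 164 down) in the 12-library fit and 145 to 496 (122 to 382 and 18 to 114) in the SWAT libraries alone, where SD replicate 1 out gave 32 down, SD replicate 3 out 361 (279 and 82) and HFD replicate 1 out 264 (220 and 44). Alternatives added after seeing the data were both shallow libraries left out, with 0 calls in all, up and down (1668 at an unadjusted p under 0.05), or in SWAT alone 301 (229 and 72), and VWAT HFD replicate 3 with SWAT HFD replicate 2 left out, 249 (200 and 49). Except for the scaling, filter and thinning, whose construction changes the values, the cause was not tested. Of the 159 genes, all that an alternative tested kept their direction. As their SD and HFD libraries did not overlap, leaving out libraries left little room for a direction to turn.

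The labels number replicates alike on both diets. With the replicate block 247 genes passed over 12 libraries (198 up, 49 down) and 672 in SWAT alone (488 and 184). Deviations of same-numbered SWAT libraries correlated at 0.015, 0.123 and 0.125. Each HFD replicate correlated best with the SD replicate of its number, while SD replicate 1 correlated best with HFD replicate 2, at 0.026. These values were small and the labels name no pairs, so the main fit did not take the numbers as pairs. Whether they mark pairs remains unsettled.

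Directions turned in genes that did not pass. Nr1h3 had log2 changes of -0.186 to 0.050 with single libraries left out (0.047, 0.026 and 0.036 in SWAT alone without HFD replicate 1, SD replicate 1 and HFD replicate 2), 0.040 and 0.038 (SWAT alone) without the shallow pair, and 0.049 without VWAT HFD replicate 3 and SWAT HFD replicate 2. In the order of all 12 and SWAT alone, the shallow pair left out gave Abca1 -0.060 and -0.065, Abcg1 0.011 and 0.001, Pparg 0.005 and 0.002, and Srebf1 0.026 and 0.023. Single libraries left out gave Abcg1 -0.281 to 0.075 and 0.081 (HFD replicate 3), Pparg -0.307 to 0.008 and 0.011, and Srebf1 -0.099 to 0.036 and 0.040 (SD replicate 3). Ptprc ranged up to 3.112, was -0.125 and -0.130 without HFD replicate 2 and -0.118 with VWAT HFD replicate 3 out too. The lymphocyte markers Ltb and Rac2 ranged up to 2.413 and 2.691 and were -1.763 and -0.251 without HFD replicate 2, -0.237 for Rac2 in SWAT alone, and -1.744 and -0.229 with VWAT HFD replicate 3 out too. Library size alone gave Akt2 -0.142, Dpp4 -0.038 and Ly6a -0.002. Genes at few CPM, such as Abcg1, have the widest errors, which depth limits.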
